A study of Mus musculus with 46 samples.

Results

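Ghr, Insr, Igf1r, Igf2r, Irs1, Irs2 and Igfbp5 are genes of growth hormone, insulin and insulin-like growth factor (IGF) signalling, and their ribosome footprints and transcripts were compared across the 4 groups of the study. With Grb10 they form a list of 8 genes that was chosen from earlier results of these data, by symbol, and which comparison put each gene on the list is not recorded. Of the 8 genes, 7 were listed among the 10453 symbols that stand on 1 entry each. Grb10 was not analysed here, and Igfbp5 was listed in the torin 1 tables alone. Because the genes were chosen on these footprint and RNA values, the changes and adjusted p-values given for them describe their place in the table of all genes and are no independent test.

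The cells were EPP2, a murine pancreatic cancer line, derived from a single-cell clone with doxycycline-inducible Cas9. In Ctu1 iKO cultures, 300 ng/mL doxycycline for 4 days induced Cas9 in cells that carry a pair of guides against Ctu1. Per the paper's methods, control cells either carried guides to non-coding parts of the genome or received no doxycycline, and which of these gave the present libraries is not stated. Both genotypes grew with fetal bovine serum and received 300 nM torin 1, an inhibitor of the mTOR kinase, or DMSO for 2 h, which gave 6 control cultures in DMSO, 6 control cultures in torin 1, 5 Ctu1 iKO cultures in DMSO and 6 Ctu1 iKO cultures in torin 1. Each culture gave 1 footprint library and 1 poly(A) RNA library. The comparisons ask how Ctu1 loss, mTOR inhibition and both together changed transcript levels and ribosome occupancy.

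Ctu1 places a sulfur on the wobble uridine of the tRNAs that read AAA, GAA and CAA codons. Insulin and IGF-1 bind the tyrosine kinase receptors Insr and Igf1r, which phosphorylate the docking proteins Irs1 and Irs2 and through them activate PI3-kinase, Akt and mTORC1. Growth hormone acts through Ghr, a cytokine receptor without a kinase of its own that works with the kinase Jak2. Igf2r binds IGF-2 and mannose 6-phosphate and carries ligands to the lysosome, Igfbp5 binds IGFs outside the cell, and FoxO transcription factors, which Akt keeps out of the nucleus, are known to raise transcription of Insr and Irs2 when signalling is low.

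The coding sequences of Ghr and Irs2 are shown because these 2 genes had the largest changes among the 7 and stand far apart in the codons that Ctu1-modified tRNAs read. AAA, CAA and GAA together made up 9.23% of the codons of Ghr, at percentile 79.4 of 10221 genes with a matched transcript, against 1.97% for Irs2 at percentile 4.3 and a median of 6.06% (quartiles 3.96% and 8.64%). AAA alone made up 2.62% in Ghr (percentile 60.9) and 0.61% in Irs2 (percentile 9.1), against a median of 2.16%. CAA made up 2.46% in Ghr, against a median of 1.03%. Igfbp5 (5.90%), Igf2r (4.91%), Insr (4.88%), Igf1r (4.24%) and Irs1 (2.52%) were below the median. In each gene, the stretch of 20 codons with the most of them is printed 5′ to 3′ in the coding sense from GRCm38 and GENCODE transcripts, with AAA, CAA and GAA codons in capitals. Codons 88 to 107 of Ghr lie at chr15:3341061-3347476 on the minus strand, across an intron, and hold 7 such codons. Codons 1157 to 1176 of Irs2 lie in 1 exon at chr8:11004903-11004962 on the minus strand and hold 3.
Ghr: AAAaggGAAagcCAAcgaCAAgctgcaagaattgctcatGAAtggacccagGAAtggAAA
Irs2: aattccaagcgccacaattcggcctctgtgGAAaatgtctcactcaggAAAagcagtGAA

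The promoters of Irs1 and Irs2 are shown because the transcripts of both docking proteins were called higher with torin 1. RefSeq promoter sequence (GRCm38.p6) was given for 6 of the 7 genes, and not for Insr. Both windows run from 130 bases before the RefSeq start to 20 bases after it, on the minus strand, at chr1:82291420-82291569 for Irs1 and chr8:11008910-11009059 for Irs2. Capitals mark CACGTG, the E-box letters, and TGTTTTG, letters found in FoxO binding sites. GTAAACA, the letters of the core FoxO site, was searched as well and was found in none of the 6 promoters, and these motifs were chosen after the sequences had been seen.
Irs1: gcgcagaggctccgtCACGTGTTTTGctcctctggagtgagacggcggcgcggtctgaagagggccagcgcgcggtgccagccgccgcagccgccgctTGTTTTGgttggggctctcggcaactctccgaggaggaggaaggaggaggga
Irs2: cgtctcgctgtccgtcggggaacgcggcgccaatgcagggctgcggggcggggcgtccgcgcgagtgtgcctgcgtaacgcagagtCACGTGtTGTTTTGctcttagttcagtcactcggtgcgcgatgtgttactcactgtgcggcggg

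With the first base of the RefSeq transcript as 0, CACGTG began at base -115 in Irs1, where it shares letters with a TGTTTTG that began at -111, and a further TGTTTTG began at -32. Both printed windows lie upstream of the GENCODE genes given below, which start at chr1:82291416 and chr8:11008458 on the minus strand. The positions therefore hold for the RefSeq starts alone. In Irs2, CACGTG began at -44 and TGTTTTG at -37. Igf2r had CACGTG at -48 and at -7, and neither motif was found for Ghr, Igf1r or Igfbp5. Over 32851 RefSeq promoters of 250 bases before to 50 after the start, searched on both strands, 7.15% held CACGTG, 6.28% held TGTTTTG, 0.408% held both and 3.65% held GTAAACA. Among the promoters of 8297 genes listed here, the shares were 12.33%, 5.04%, 0.494% and 3.11%. Such matches describe letters and not bound sites.

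Library totals ran from 4602092 to 52907878 footprint counts and from 129881946 to 325494304 RNA counts, with the lowest footprint totals in Ctu1 iKO cultures in torin 1 (median 10582524.5, against 26312873.5 in control cultures in DMSO). All levels below are CPM, read counts scaled by a library's TMM-adjusted total. Where groups are said not to overlap, the share of all genes without overlap was not counted. In each table every entry had at least 100 footprint counts in 1 or more libraries, so genes under that limit could not be described. Ctu1, the targeted gene, was listed in DMSO tables, at 1.65 to 3.78 CPM of footprints in control and 1.35 to 2.34 CPM in Ctu1 iKO cultures, and at 4.42 to 4.61 and 4.34 to 4.94 CPM of RNA in replicates 1 to 3. These ranges overlapped, and a count over the whole gene does not check an edit inside it. Of 8 epithelial markers 5 were listed in DMSO tables (Krt8, Krt18, Krt19, Epcam and Sox9) and all 6 mesenchymal markers were listed, whose summed footprints were 335 to 404 and 5994 to 8356 CPM in control cultures in DMSO. No acinar, endocrine or endothelial marker was listed, and of 3 leukocyte markers Cd68 was, at 1.34 to 2.23 CPM of footprints in control and 2.10 to 6.20 CPM in Ctu1 iKO cultures in DMSO. Among the later replicates (4 and above), 6 of 11 RNA libraries and 0 of 11 footprint libraries lay nearer to the other treatment than to the labelled one, so RNA comparisons use replicates 1 to 3, and for Ghr, Irs1 and Irs2 the values with all RNA libraries as labelled are given where they moved by more than the spread between replicates. P-values measure only the spread between these cultures, since the paper's methods and legends differ on how many were biologically independent.

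Ghr, the growth hormone receptor (ENSMUSG00000055737, GRCm38 chr15:3317760-3583492, minus strand), was higher in Ctu1 iKO than in control cultures in both assays and both treatments. Its footprint level was 12.3, 11.8, 13.2, 12.5, 14.8 and 16.3 CPM in control replicates 1 to 6 in DMSO, and 37.3, 38.9, 35.3, 32.5 and 34.9 CPM in Ctu1 iKO replicates 1 to 5. In torin 1, it was 20.7, 18.3, 11.5, 13.9, 21.6 and 17.9 CPM in control and 37.9, 29.0, 33.0, 44.2, 40.8 and 37.3 CPM in Ctu1 iKO cultures. The lowest Ctu1 iKO library stood above the highest control library in each treatment. The footprint log2 change with Ctu1 loss was 1.41 (SE 0.11, 2.65-fold, adjusted p = 4.46e-05 by edgeR) in DMSO, the lowest p-value of 10397 genes, and 1.09 (SE 0.17, 2.13-fold, adjusted p = 0.00118) in torin 1. Of the 7 genes, 6 were tested in DMSO and 7 in torin 1 and Ghr was the 1 called, where 2.66% and 4.83% of all genes were called. Since these libraries did not overlap, Ghr was by necessity higher in 5 of 5 same-numbered cultures in DMSO and 6 of 6 in torin 1. In the DMSO comparison, samples of the same number did not all deviate together. Replicates 1 and 2 alone gave differences of 1.66 in DMSO and 0.77 in torin 1, and the remaining replicates gave 1.28 and 1.29. With replicates 1 to 3 only, as in the RNA comparisons, the torin 1 change was 0.97 and no longer called (adjusted p = 0.382).

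**Figure D1:**
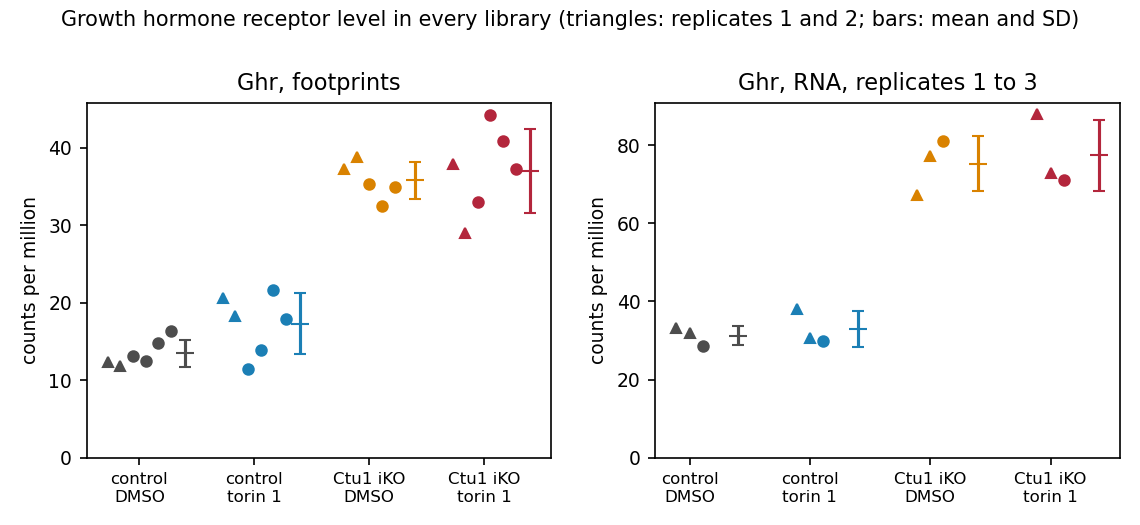
Ghr level in CPM (linear axis from 0) in footprint and RNA libraries of the 4 groups. Points are libraries (triangles for replicates 1 and 2, circles for later ones), and bars are mean ± SD. In footprints these were 13.5 ± 1.75 and 35.8 ± 2.42 CPM in control and Ctu1 iKO cultures in DMSO, and 17.3 ± 3.93 and 37.0 ± 5.42 CPM in torin 1.

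The Ghr transcript was also higher with Ctu1 loss. RNA replicates 1 to 3 gave 33.2, 31.9 and 28.6 CPM in control and 67.3, 77.2 and 80.9 CPM in Ctu1 iKO cultures in DMSO. In torin 1 they gave 38.1, 30.7 and 29.8 CPM in control and 87.9, 73.0 and 71.2 CPM in Ctu1 iKO cultures. No control library reached the lowest Ctu1 iKO library in either treatment. The log2 change was 1.27 (SE 0.095, 2.40-fold, adjusted p = 0.00602 by edgeR) in DMSO, where 5.12% of all genes were called, and 1.25 (SE 0.13, 2.38-fold, adjusted p = 0.0194) in torin 1, where 1.31% were. The DMSO call was lost without control DMSO replicate 2 (1.28, adjusted p = 0.0514), and the torin 1 call was lost without control torin 1 replicate 2 (1.20, adjusted p = 0.188) or 3 (1.19, 0.102) or Ctu1 iKO torin 1 replicate 2 (1.29, 0.118). With all RNA libraries as labelled, the torin 1 change was 0.48 (adjusted p = 0.95). In DMSO RNA, the summed epithelial markers were 287 to 308 CPM in control and 320 to 400 CPM in Ctu1 iKO cultures, with 0 of 5 called by edgeR (1 at an unadjusted p under 0.05), and the mesenchymal sums overlapped (5321 to 6645 and 6560 to 9766 CPM), with Acta2 called (2.21, adjusted p = 0.0165). In footprints with Ctu1 loss these sums overlapped, with Krt8 called in DMSO (0.36, adjusted p = 0.0352) and Sox9 in torin 1 (0.61, adjusted p = 0.0209). Between the RNA libraries in torin 1, marker sums also stood apart, at 7433 to 9168 CPM in control and 11371 to 19117 CPM in Ctu1 iKO cultures for the 6 mesenchymal markers, of which Vim was called (0.72, adjusted p = 0.0318), and at 380 to 437 and 550 to 619 CPM for 4 epithelial markers, of which 0 were called by edgeR (3 of 4 at an unadjusted p under 0.05). The part of these shifts in the Ghr result was not tested. In bulk samples, a change in the number of cells of a kind and a change in RNA per cell cannot be told apart. Counts per gene also do not separate the transcript of the full receptor from that of the secreted growth hormone binding protein, which the same gene makes.

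No change of Ghr with torin 1 was called. The footprint log2 change was 0.36 (SE 0.15, adjusted p = 0.195) in control and 0.05 (SE 0.13, adjusted p = 0.889) in Ctu1 iKO cultures. The RNA changes were 0.06 and 0.04, and with all RNA libraries as labelled they were 0.56 (adjusted p = 0.129) and -0.16 (adjusted p = 0.987). In control cultures, replicates 1 and 2 rose without overlap (difference 0.69) while replicates 3 to 6 overlapped (0.16). The difference between the torin 1 effects in the 2 genotypes was -0.31 (SE 0.20, adjusted p = 0.9998). Over 8 alternative fits it ran from -0.62 to -0.31. The footprint change in Ctu1 iKO cultures ran from -0.17 to 0.14 over 9 alternative fits. None of these was called.

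Translational efficiency (TE) is the footprint level relative to RNA of the same cultures, here in replicates 1 to 3. Ghr TE changed by 0.32 (SE 0.16) with Ctu1 loss in DMSO and by -0.28 (SE 0.30) in torin 1, and by 0.38 (SE 0.26) and -0.22 (SE 0.20) with torin 1 in control and Ctu1 iKO cultures. None of these was called. With all RNA libraries as labelled, 3 of the 4 directions turned, to 0.61 with Ctu1 loss in torin 1 and to -0.18 and 0.20 with torin 1 in control and Ctu1 iKO cultures, and none was called.

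Insr, the insulin receptor (ENSMUSG00000005534, chr8:3122061-3279617, minus strand), averaged 19.6 ± 1.69 CPM of footprints in control cultures in DMSO, 23.8 ± 4.49 in control cultures in torin 1, 15.6 ± 4.89 in Ctu1 iKO cultures in DMSO and 22.1 ± 6.50 in Ctu1 iKO cultures in torin 1 (SD, n = 6, 6, 5 and 6). In DMSO, the control libraries gave 18.0 to 22.0 CPM (median 18.8), and the Ctu1 iKO libraries gave 21.8, 19.6, 10.3, 12.4 and 13.9 CPM. Replicates 1 and 2 of the Ctu1 iKO cultures therefore lay within the control range and replicates 3 to 5 below it. The change with Ctu1 loss was -0.33 (SE 0.18, adjusted p = 0.352), with differences of -0.07 in replicates 1 and 2 and -0.61 in the others. With torin 1, Insr footprints changed by 0.28 (SE 0.13, adjusted p = 0.225) in control and 0.49 (SE 0.23, adjusted p = 0.252) in Ctu1 iKO cultures. Insr was higher in 5 of 6 same-numbered cultures in control. It was higher in 5 of 5 in Ctu1 iKO cultures, where samples of the same number did not all deviate together. In Ctu1 iKO cultures, torin 1 and DMSO libraries did not overlap within replicates 1 and 2 (difference 0.52) or within the others (0.58). With a term for this split the change was 0.54 (adjusted p = 0.0112), in a fit that called 1368 of 9855 genes, against 788 without it. The labels name no batch, and the split follows RNA library totals, which were 129881946 to 158915842 counts in replicates 1 and 2 and 214922186 to 325494304 in the others. Insr RNA in replicates 1 to 3 was 21.8, 23.04 and 15.9 CPM in control DMSO, 29.8, 27.6 and 19.9 in control torin 1, 21.1, 18.7 and 11.6 in Ctu1 iKO DMSO and 32.8, 21.5 and 16.3 in Ctu1 iKO torin 1. Replicate 3 was the lowest of each group, and the groups overlapped.

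Igf1r, the IGF-1 receptor (ENSMUSG00000005533, chr7:67952827-68233668, plus strand), varied widely within groups. Footprints were 32.8, 57.2, 50.2, 68.0, 32.2 and 36.7 CPM in control DMSO, and 50.1, 60.3, 57.4, 67.5, 36.8 and 33.4 CPM in control torin 1. The Ctu1 iKO cultures gave 47.7, 54.8, 53.3, 27.2 and 32.2 CPM in DMSO and 76.2, 71.5, 61.0, 66.3, 35.1 and 36.1 CPM in torin 1. The last 2 libraries of each group were among its 3 lowest, and all 4 groups overlapped. Its footprint changes ran from -0.10 (Ctu1 loss in DMSO) to 0.41 (SE 0.24, adjusted p = 0.356, torin 1 in Ctu1 iKO), and its RNA changes from -0.02 to 0.11.

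Igf2r (ENSMUSG00000023830, chr17:12682406-12769664, minus strand) is overlapped by the antisense RNA Airn, and how the counting treated strand is not given in the sources used here, so its RNA values are uncertain. Its mean footprint level was 101 ± 15.2 CPM in control DMSO, 121 ± 24.7 in control torin 1, 90.2 ± 27.4 in Ctu1 iKO DMSO and 110 ± 48.2 in Ctu1 iKO torin 1 (SD, n = 6, 6, 5 and 6). The last of these includes replicate 1 at 202 CPM, with the others at 68.1 to 114 CPM. RNA replicates 1 to 3 gave 83.5, 83.1 and 50.6 CPM in control DMSO, 110, 97.6 and 58.7 in control torin 1, 81.0, 68.8 and 37.8 in Ctu1 iKO DMSO and 144, 95.3 and 53.1 in Ctu1 iKO torin 1. As for Insr, replicate 3 was the lowest of each group and the groups overlapped. The largest change was 0.64 (SE 0.39, adjusted p = 0.372) in RNA with torin 1 in Ctu1 iKO cultures. It ran from 0.25 to 0.94 without 1 library at a time and from 0.26 to 0.65 over the alternative fits.

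**Figure D2:**
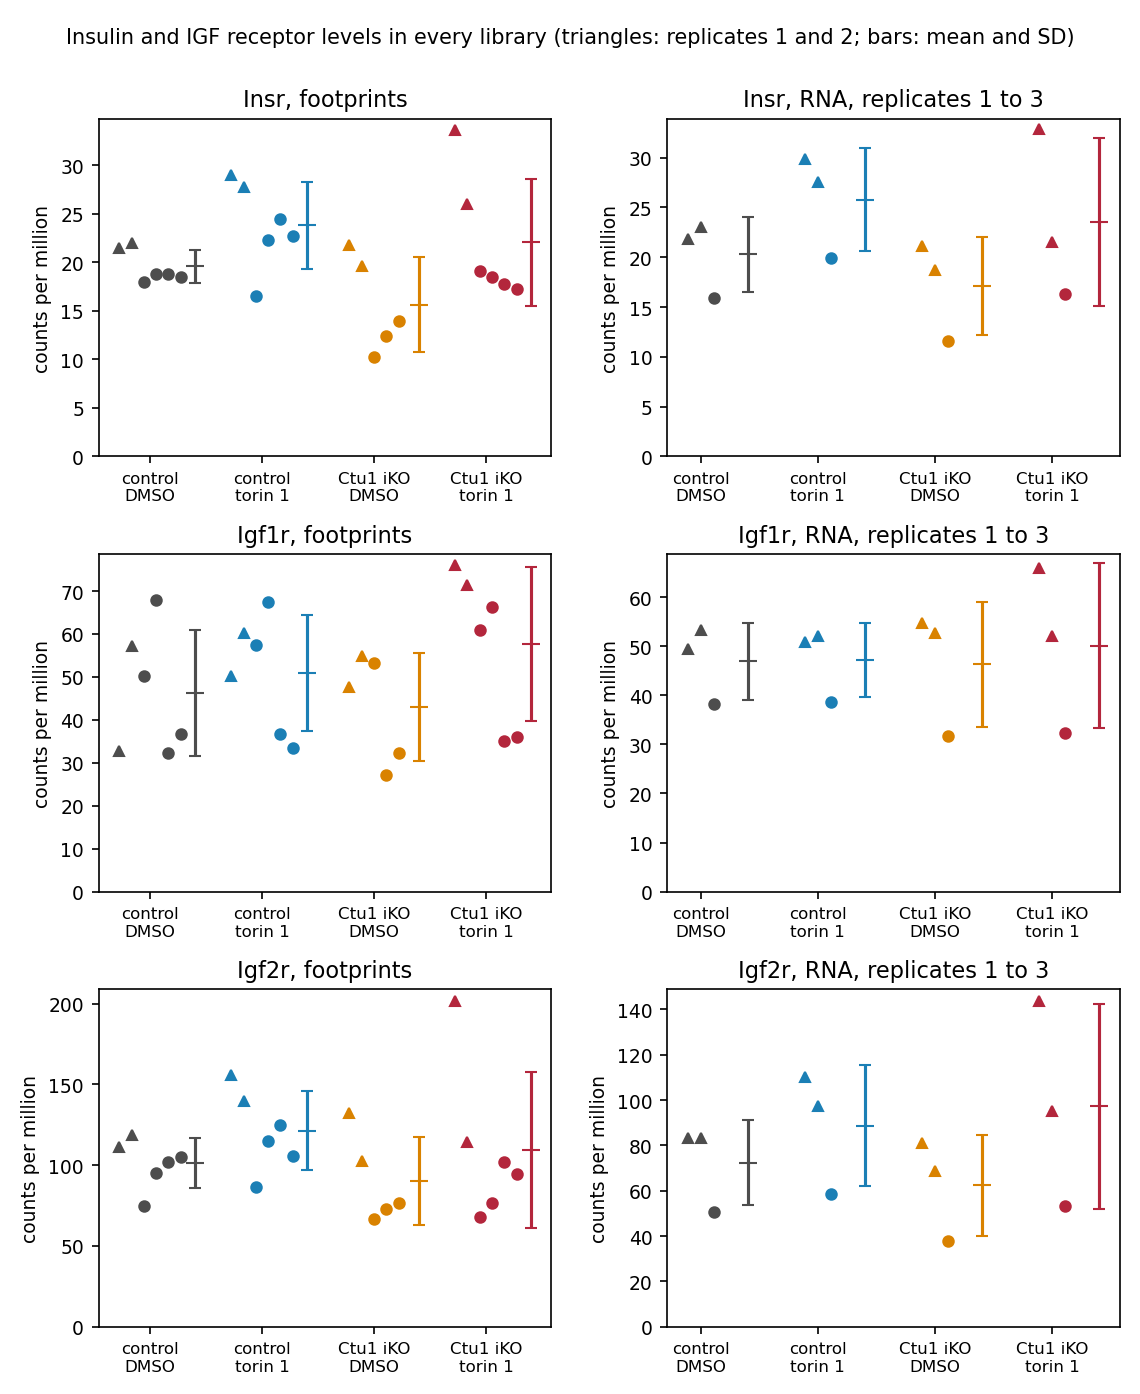
Insr, Igf1r and Igf2r levels in CPM (linear axes from 0) in footprint and RNA libraries of the 4 groups, with points for libraries (triangles for replicates 1 and 2, circles for later ones) and bars for mean ± SD. The groups overlap in every panel, and Igf2r in Ctu1 iKO cultures in torin 1 has 1 footprint library at 202 CPM.

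In footprints with torin 1 in control cultures, in footprints with Ctu1 loss in torin 1 and in all 4 RNA comparisons, samples of the same number deviated together, and a fit with the replicate number as a block (replicate block) was made beside the others. It called Igf2r higher with torin 1 in control footprints (0.25, adjusted p = 0.0187), control RNA (0.26, adjusted p = 0.00137) and Ctu1 iKO RNA (0.60, adjusted p = 0.000648), and lower in RNA with Ctu1 loss in DMSO (-0.25, adjusted p = 0.0352). It called Insr higher with torin 1 in control RNA (0.33, adjusted p = 0.000836) and Ctu1 iKO RNA (0.45, adjusted p = 0.00564), and lower in RNA with Ctu1 loss in DMSO (-0.28, adjusted p = 0.0428). Igf1r had no call in this fit. The block raised the number of calls over all genes as well, to 20.5% in control footprints with torin 1, 28.0% in RNA with Ctu1 loss in DMSO, 43.7% and 35.1% in RNA with torin 1 in control and Ctu1 iKO cultures, 32.8% in RNA with Ctu1 loss in torin 1 and 14.4% in footprints with Ctu1 loss in torin 1. The shares without the block are given with the calls of the wider pathway.

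Irs2, the docking protein (ENSMUSG00000038894, chr8:10984681-11008458, minus strand), was higher in torin 1 than in DMSO in both assays and both genotypes. Footprints were 4.20, 5.11, 6.82, 5.17, 4.36 and 4.08 CPM in control DMSO and 9.53, 14.8, 14.5, 13.0, 12.5 and 10.8 CPM in control torin 1. Ctu1 iKO cultures gave 3.76, 5.86, 6.74, 3.24 and 3.16 CPM in DMSO and 12.1, 15.9, 16.6, 14.4, 10.0 and 13.1 CPM in torin 1. Every torin 1 library stood above every DMSO library. The log2 change was 1.34 (SE 0.17, 2.53-fold, adjusted p = 9.89e-05 by edgeR) in control and 1.59 (SE 0.24, 3.01-fold, adjusted p = 0.000741) in Ctu1 iKO cultures, where 7.24% and 8.0% of all genes were called. Replicates 1 and 2 gave 1.35 and 1.55, and the other replicates 1.33 and 1.69. With replicates 1 to 3 only, the changes were 1.27 (adjusted p = 0.0982) and 1.44 (adjusted p = 0.0827). The difference between the 2 torin 1 effects was 0.26 (SE 0.28, adjusted p = 0.9998), and Ctu1 loss changed Irs2 footprints by -0.13 (SE 0.25) in DMSO and 0.13 (SE 0.16) in torin 1, neither of which was called.

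Irs2 RNA was also higher in torin 1. Replicates 1 to 3 gave 7.18, 7.03 and 7.34 CPM in control DMSO and 17.3, 19.5 and 18.0 CPM in control torin 1, and 6.88, 6.80 and 6.41 CPM in Ctu1 iKO DMSO and 16.1, 17.6 and 16.6 CPM in Ctu1 iKO torin 1. The groups were far apart relative to their spread. The log2 changes were 1.33 (SE 0.082, 2.51-fold, adjusted p = 0.000401) and 1.32 (SE 0.095, 2.501-fold, adjusted p = 0.00106), where 13.1% and 8.25% of all genes were called. With all RNA libraries as labelled they were 1.02 (adjusted p = 0.0715) and 0.27 (adjusted p = 0.978). Irs2 TE changed by -0.06 (SE 0.28) with torin 1 in control and by 0.12 (SE 0.30) in Ctu1 iKO cultures, and with all RNA libraries as labelled by 0.32 (adjusted p = 0.945) and 1.32 (adjusted p = 0.133). With Ctu1 loss, RNA changed by -0.11 in both treatments and TE by 0.13 in DMSO, against 0.86, 0.10 and -0.99 with all RNA libraries as labelled, of which the first was called (adjusted p = 0.0469). Between the same RNA libraries, the summed mesenchymal markers went from 5321 to 6645 CPM in control DMSO to 7433 to 9168 CPM in control torin 1, and from 6560 to 9766 CPM in Ctu1 iKO DMSO to 11371 to 19117 CPM in Ctu1 iKO torin 1. The summed epithelial markers, 5 listed in DMSO and 4 in torin 1, went from 287 to 308 CPM to 380 to 437 CPM in control and from 320 to 400 CPM to 550 to 619 CPM in Ctu1 iKO cultures. Of the mesenchymal markers Vim was called higher in RNA in both genotypes (0.38 and 0.75), and of the epithelial ones Krt18 and Sox9 were, with Krt8 in Ctu1 iKO cultures. In footprints, Vim was called lower with torin 1 in both genotypes (-0.48, adjusted p = 0.00506, and -0.93, adjusted p = 9.03e-05), Sox9 was called higher in both (0.83 and 1.01) and Krt18 lower in Ctu1 iKO cultures (-0.52), while the mesenchymal sums overlapped (5994 to 8356 and 5362 to 7011 CPM in control, 5757 to 9650 and 4873 to 11922 CPM in Ctu1 iKO cultures). The part of these shifts in the Irs2 and Irs1 results was not tested.

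Irs1, the other docking protein (ENSMUSG00000055980, chr1:82233101-82291416, minus strand), was called higher with torin 1 in RNA and not in footprints. Footprints were 6.79, 10.5, 8.08, 11.1, 7.33 and 11.5 CPM in control DMSO and 7.70, 13.4, 11.9, 13.8, 12.3 and 13.0 CPM in control torin 1, and 8.18, 12.1, 12.4, 9.41 and 10.0 CPM in Ctu1 iKO DMSO and 9.94, 19.6, 13.2, 18.3, 16.8 and 16.9 CPM in Ctu1 iKO torin 1. DMSO and torin 1 libraries overlapped in both genotypes. The torin 1 library was higher in 6 of 6 same-numbered cultures in control. It was higher in 5 of 5 in Ctu1 iKO cultures, where samples of the same number did not all deviate together. Igf2r footprints gave the same counts, and the share of all genes that did so was not counted. The changes were 0.38 (SE 0.18, adjusted p = 0.232) and 0.60 (SE 0.19, adjusted p = 0.0743), where 7.24% and 8.0% of all genes were called. With the replicate block the control change was 0.39 and called (adjusted p = 0.0467). Without Ctu1 iKO torin 1 replicate 1, the change in Ctu1 iKO cultures was called (adjusted p = 0.0178). Over 9 alternative fits that change ran from 0.38 to 0.70, with adjusted p-values up to 0.685, and 3 of the 9 called it.

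Irs1 RNA was 12.6, 12.0 and 8.92 CPM in control DMSO, 17.9, 16.3 and 15.6 in control torin 1, 14.3, 10.9 and 13.7 in Ctu1 iKO DMSO and 22.5, 21.6 and 21.7 in Ctu1 iKO torin 1. Torin 1 and DMSO libraries did not overlap in either genotype. The changes were 0.56 (SE 0.14, 1.47-fold, adjusted p = 0.0373) and 0.76 (SE 0.12, 1.69-fold, adjusted p = 0.0134). The first call was lost without control DMSO replicate 1 (0.65, adjusted p = 0.056) or 2 (0.62, 0.0865) or control torin 1 replicate 1 (0.50, 0.107) or 2 (0.57, 0.105). The second was lost without Ctu1 iKO DMSO replicate 1 (0.84, adjusted p = 0.0505) or 2 (0.66, 0.0503) or Ctu1 iKO torin 1 replicate 2 (0.77, 0.0568). With all RNA libraries as labelled the second change was 0.20 (adjusted p = 0.974), and TE with torin 1 in Ctu1 iKO cultures was 0.41 against -0.37. With Ctu1 loss in DMSO, RNA changed by 0.21 (adjusted p = 0.444) and TE by 0.16, against 0.52 (adjusted p = 0.0399) and -0.34 with all RNA libraries as labelled. Between genotypes in torin 1, Irs1 RNA changed by 0.42 (SE 0.091, adjusted p = 0.0765) with no overlap, and with the replicate block by 0.42, which was called (adjusted p = 0.00278). DESeq2, which called 1092 genes in all here, gave 0.41 (adjusted p = 0.000888).

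**Figure D3:**
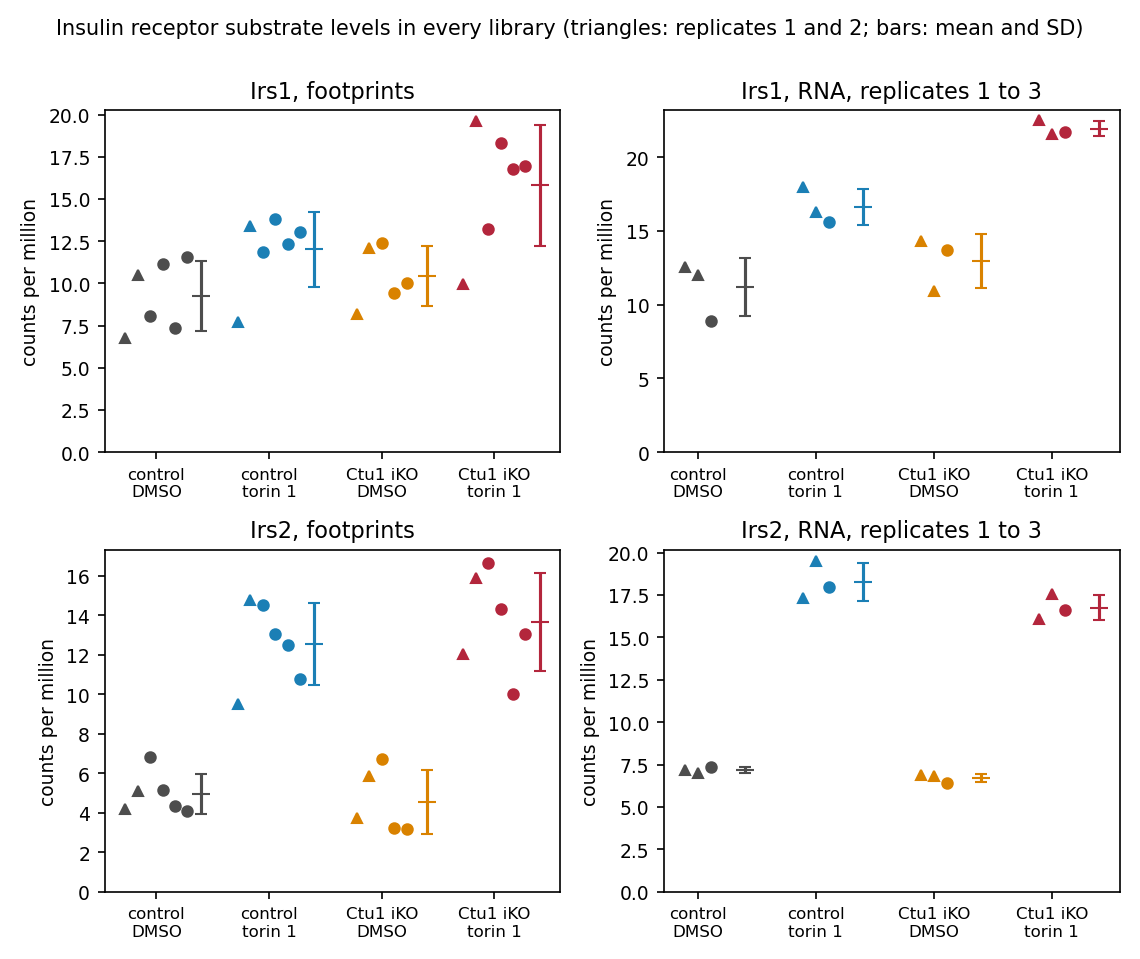
Irs1 and Irs2 levels in CPM (linear axes from 0) in footprint and RNA libraries of the 4 groups, with points for libraries (triangles for replicates 1 and 2, circles for later ones) and bars for mean ± SD. Irs2 footprints average 4.96 and 4.55 CPM in DMSO and 12.5 and 13.7 CPM in torin 1 in control and Ctu1 iKO cultures.

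Igfbp5, the IGF-binding protein (ENSMUSG00000026185, chr1:72857932-72874884, minus strand), could be compared in torin 1 only. Footprints were 3.36, 1.79, 2.44, 2.77, 2.02 and 3.42 CPM in control and 6.77, 3.73, 4.00, 5.73, 1.88 and 2.95 CPM in Ctu1 iKO cultures, from 18 to 121 counts a library. The groups overlapped, and the change was 0.63 (SE 0.32, adjusted p = 0.312). RNA replicates 1 to 3 gave 3.55, 5.50 and 3.81 CPM in control and 8.04, 8.02 and 5.64 CPM in Ctu1 iKO cultures, which did not overlap. The RNA change was 0.77 (SE 0.22, 1.70-fold, adjusted p = 0.121), and with the replicate block it was called (0.77, adjusted p = 0.00426). DESeq2, which called 1092 genes in all here, also called it (0.77, adjusted p = 0.0171).

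**Figure D4:**
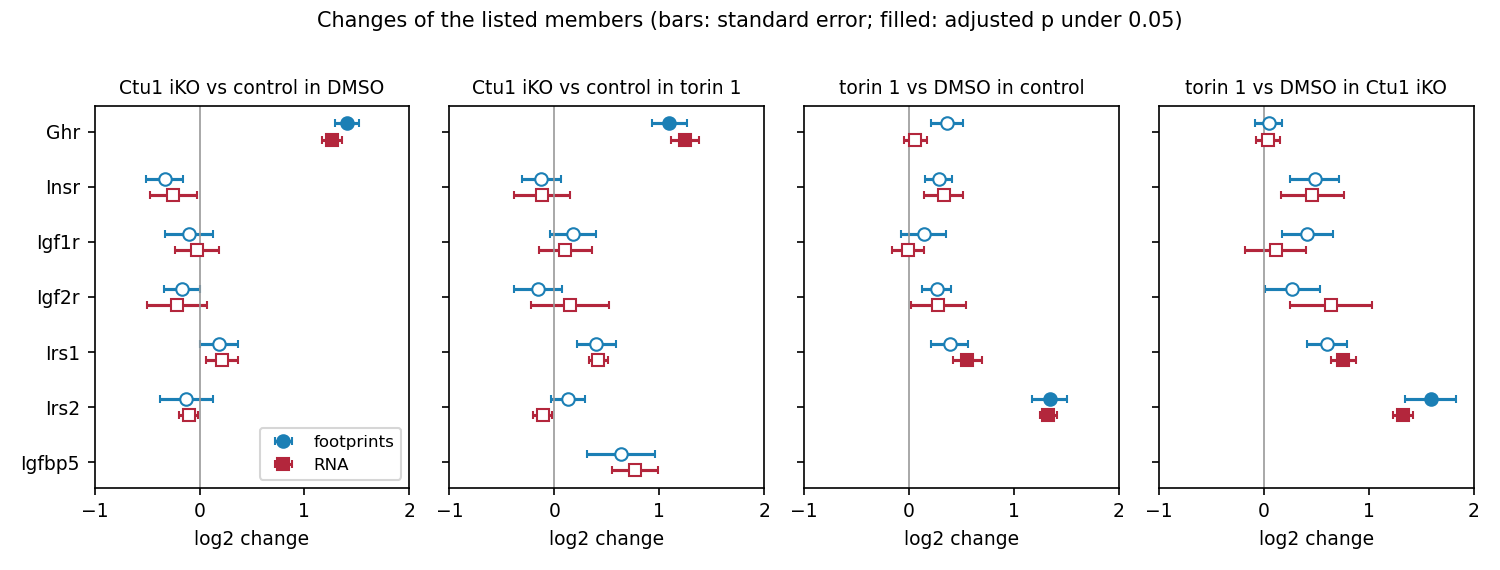
Log2 change of each gene in the 4 comparisons, for footprints (blue circles) and RNA replicates 1 to 3 (red squares), with SE bars and filled symbols where the adjusted p-value was under 0.05. Ghr is filled in both comparisons of Ctu1 iKO with control (1.41 and 1.09 in footprints) and Irs2 in both comparisons of torin 1 with DMSO (1.34 and 1.59), and Irs1 is filled for RNA alone.

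Levels of different genes were set side by side as footprint CPM per kilobase of coding sequence, in control cultures in DMSO. Igf2r had 13.6 ± 2.04, Igf1r 11.2 ± 3.58, Ghr 6.92 ± 0.896, Insr 4.76 ± 0.411, Irs1 2.4997 ± 0.562 and Irs2 1.25 ± 0.258 CPM per kb (SD, n = 6). Igf2r overlapped Igf1r and Igf1r overlapped Ghr, and the libraries of each later pair of neighbours in this order did not overlap. Over 9920 genes, these levels ran from percentile 45.1 for Igf2r to 28.7 for Ghr and 3.1 for Irs2. The log2 ratio of footprints per kb of coding sequence to RNA per kb of transcript was also taken, in replicates 1 to 3. It was highest for Igf1r (1.44 ± 0.51, SD) and lowest for Ghr (-0.23 ± 0.18, percentile 20.2). Insr, at 1.21 ± 0.13, lay within the spread of Igf1r. The order of genes in this ratio depends on annotated transcript length, which for Igf1r was 11409 bases with 4107 coding.

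A wider list of receptors, IGF-binding proteins, docking proteins and adaptors, inhibitors, and members of the PI3-kinase and Jak-Stat branches had 58 listed genes, the 7 above among them, and none of its ligand genes was listed. In footprints with Ctu1 loss in DMSO, 3 of 56 tested genes were called, against 2.66% of 10397 genes, with a median change of 0.01 in the list. All 3 were higher, and beside Ghr they were Trib3, a pseudokinase that binds Akt and is induced by the stress factor Atf4 (1.20, SE 0.17, adjusted p = 0.00347), and Dok1, an adaptor that dampens receptor signalling (0.50, SE 0.12, adjusted p = 0.0427). In torin 1, 4 of 55 genes were called, against 4.83% of 9913 genes, all higher, with a median of 0.07. They were Ghr, Trib3 (1.37, adjusted p = 0.00681), Dok1 (0.84, adjusted p = 0.00127) and Pik3r1, a regulatory subunit of PI3-kinase (0.53, adjusted p = 0.0433). With the replicate block, 9 were called, against 14.4% of all genes.

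Trib3 footprints averaged 7.43 ± 1.45 CPM in control DMSO, 2.73 ± 0.98 in control torin 1, 17.1 ± 3.09 in Ctu1 iKO DMSO and 7.16 ± 1.14 in Ctu1 iKO torin 1 (SD, n = 6, 6, 5 and 6). Trib3 was thus higher with Ctu1 loss and lower with torin 1. Dok1 averaged 20.8 ± 2.20 and 29.3 ± 4.68 CPM in control and Ctu1 iKO cultures in DMSO and 21.3 ± 2.26 and 38.3 ± 5.83 CPM in torin 1.

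In RNA with Ctu1 loss in DMSO, 5 of 56 genes of the wider list were called, all higher, against 5.12% of 10119 genes, with a median of -0.02. Both IGF-binding proteins tested were among them, Igfbp7 (1.13, SE 0.20, adjusted p = 0.03) and Igfbp4 (0.67, SE 0.11, adjusted p = 0.0246), together with Trib3 (1.23, adjusted p = 0.00602), Dok1 (0.42, adjusted p = 0.0312) and Ghr. Igfbp4 footprints changed by 0.57 (adjusted p = 0.097) and Igfbp7 footprints by 0.77 (adjusted p = 0.267). In torin 1, 3 of 55 genes were called in RNA, against 1.31% of 9650 genes, all higher, with a median of -0.01. They were Ghr, Igfbp7 (0.98, adjusted p = 0.0492) and Igfbp4 (0.72, adjusted p = 0.0317). Calls over all genes and over the list both moved when single libraries were left out. In DMSO, where 518 genes were called in all, 0 genes of the list and 0 of all genes were called without control replicate 2, and 2 of the list and 34 to 131 of all genes without control replicate 1 or 3 or Ctu1 iKO replicate 1 or 2. In torin 1, where 126 genes were called in all, 0 of the list and 1 to 2 of all genes were called without control replicate 2 or 3 or Ctu1 iKO replicate 2, 1 of the list and 12 to 20 of all genes without replicate 1 of either group, and 5 of the list and 406 of all genes without Ctu1 iKO replicate 3. With the replicate block, 13 and 21 of the list were called, against 28.0% and 32.8% of all genes.

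In footprints with torin 1, 5 of 53 genes were called in control cultures, against 7.24% of 9856 genes, with a median of 0.07, and 4 of 53 in Ctu1 iKO cultures, against 8.0% of 9855 genes, with a median of 0.12. Foxo3, a FoxO transcription factor, was higher in both (0.89, SE 0.15, adjusted p = 0.00109, and 0.79, SE 0.13, adjusted p = 0.00117), as was Irs2. Trib3 was lower in both (-1.43, SE 0.25, adjusted p = 0.00198, and -1.26, SE 0.17, adjusted p = 0.000311). In control cultures, Jak2 was called higher (0.77, adjusted p = 0.00676) and the adaptor Sh2b2 lower (-1.01, adjusted p = 0.0191). In Ctu1 iKO cultures, these changed by 0.08 (adjusted p = 0.92) and -0.03 (adjusted p = 0.984), with footprint ranges of 3.60 to 20.5 and 0.94 to 9.94 CPM in torin 1. The kinase Akt2 was called in Ctu1 iKO cultures (0.55, adjusted p = 0.0165) and gave 0.26 (adjusted p = 0.0847) in control cultures. No gene of the wider list differed between the 2 torin 1 effects by edgeR (0 of 53 tested, 0 of them at an unadjusted p under 0.05 and 0 called by DESeq2), against 0.639% of 9857 genes. With the replicate block, 13 of 53 genes were called in control cultures, against 20.5% of all genes.

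**Figure D5:**
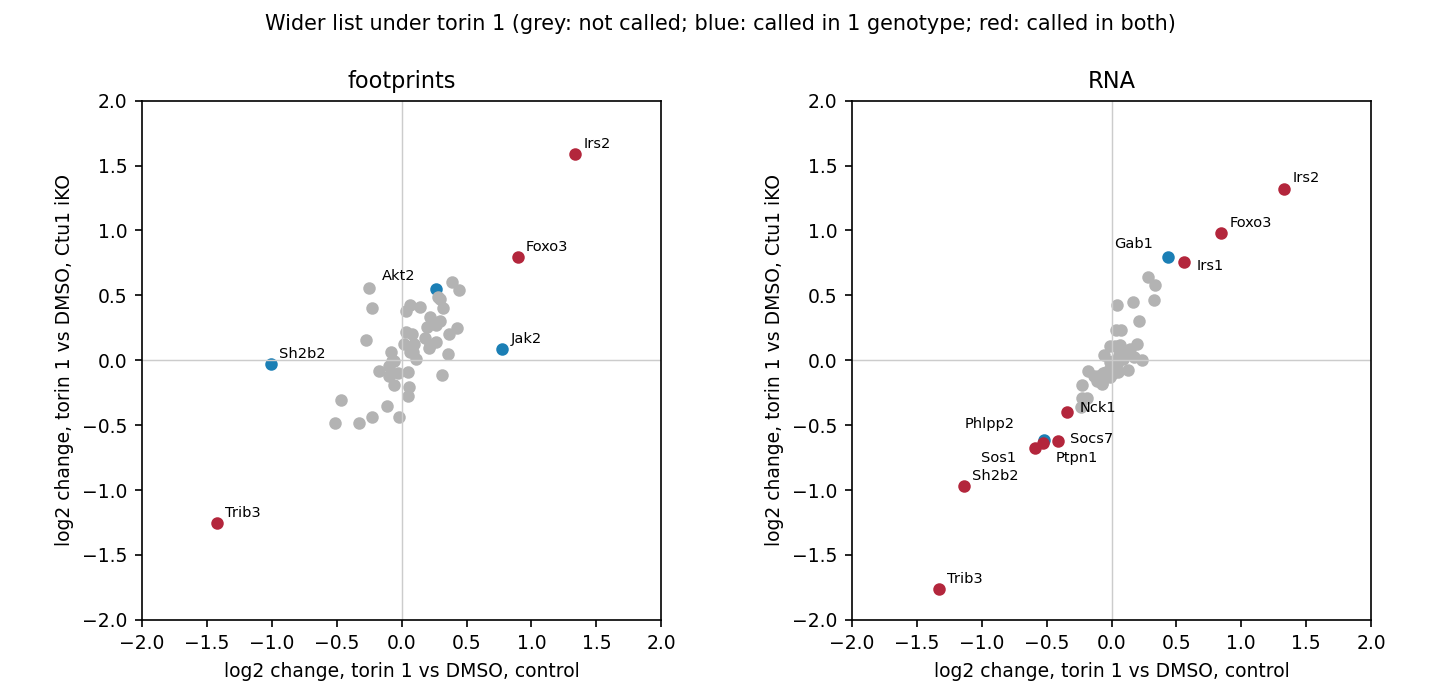
Log2 change of footprints (left) and RNA replicates 1 to 3 (right) with torin 1 in control (x axis) and Ctu1 iKO cultures (y axis) for the genes of the wider list, in grey where not called, in blue where called in 1 genotype and in red where called in both. In footprints, Irs2 and Foxo3 lie at the upper right (1.34 and 1.59, and 0.89 and 0.79) and Trib3 at the lower left (-1.43 and -1.26).

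In RNA with torin 1, 11 of 53 genes were called in control cultures, 4 higher and 7 lower, against 13.1% of 9617 genes, and 9 of 53 in Ctu1 iKO cultures, 3 higher and 6 lower, against 8.25% of 9619 genes. The medians were 0.01 and -0.01. Beside Irs1 and Irs2, Foxo3 was higher in both (0.84, adjusted p = 0.00184, and 0.98, adjusted p = 0.00282), and the docking protein Gab1 was higher in control cultures (0.44, adjusted p = 0.0297) with 0.80 (adjusted p = 0.0592) in Ctu1 iKO cultures. Trib3 (-1.33, adjusted p = 0.000627, and -1.77, adjusted p = 0.00298), Sh2b2 (-1.14, adjusted p = 0.005, and -0.97, adjusted p = 0.0101) and Sos1, an activator of Ras (-0.59, adjusted p = 0.00251, and -0.67, adjusted p = 0.00951), were lower in both. In control cultures, where 1259 genes were called in all, 6 of the list and 412 to 671 of all genes were called without DMSO replicate 1 or 2 or torin 1 replicate 1. In Ctu1 iKO cultures, where 794 were called in all, 4 of the list and 123 to 125 of all genes were called without DMSO replicate 1 or 2. With the replicate block, 26 and 20 of the list were called, against 43.7% and 35.1% of all genes.

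By role, of 4 tested receptors Ghr was called in footprints with Ctu1 loss in each treatment, against 2.66% and 4.83% of all genes, and 0 were called with torin 1 by edgeR (2 in control and 0 in Ctu1 iKO cultures at an unadjusted p under 0.05). Of 14 docking proteins and adaptors, Dok1 was called with Ctu1 loss in each treatment, Irs2 and Sh2b2 with torin 1 in control and Irs2 with torin 1 in Ctu1 iKO cultures, where 7.24% and 8.0% of all genes were called. Of the inhibitors, Trib3 was called with Ctu1 loss (1 of 15 in DMSO and 1 of 13 in torin 1, higher) and with torin 1 (1 of 13 in each genotype, lower). In RNA with torin 1, 4 and 3 of 13 inhibitors were called, all lower, against 13.1% and 8.25% of all genes. Of the 14 docking proteins and adaptors, 6 were called in control (3 higher and 3 lower) and 5 in Ctu1 iKO cultures (2 higher and 3 lower).

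In translational efficiency, 0 genes of the wider list were called in any of the 4 comparisons by edgeR, with 1 of 56, 5 of 53, 3 of 53 and 0 of 55 at an unadjusted p under 0.05 for Ctu1 loss in DMSO, torin 1 in control, torin 1 in Ctu1 iKO and Ctu1 loss in torin 1. DESeq2 called 0, 4, 0 and 0. On simulated data the TE test recovered fewer of the planted changes than the footprint and RNA tests did, so these counts do not show that TE was unchanged. Over all genes, 0 of 10386 (0%, with 399 at an unadjusted p under 0.05 and 21 called by DESeq2), 1.14% of 9848, 1.67% of 9845 and 0.111% of 9901 were called. The TE changes of the 7 genes ran from -0.37 (SE 0.34, Irs1 with torin 1 in Ctu1 iKO cultures) to 0.38 (SE 0.26, Ghr with torin 1 in control cultures).

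Other receptor tyrosine kinases, of which 23 were listed, held 0 footprint calls in both comparisons of Ctu1 iKO with control (0 of 23 in DMSO and 0 of 22 in torin 1 by edgeR, 1 and 4 of them at an unadjusted p under 0.05). With torin 1, 1 of 22 was called in control cultures, against 7.24% of all genes, and 3 of 22 in Ctu1 iKO cultures, against 8.0%, all higher. Pdgfra, a receptor for platelet-derived growth factor, was called in both (0.88, adjusted p = 0.00704, and 1.60, adjusted p = 0.00679), and Pdgfrb was called in Ctu1 iKO cultures (0.85, adjusted p = 0.0443) with 0.44 (adjusted p = 0.0944) in control cultures. The fourth call, Met in Ctu1 iKO cultures, was 0.49 (adjusted p = 0.018).

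Across the 23 footprint libraries, the genes outside the pathway whose log2 CPM was most like that of Irs2 were Pim1 (Pearson r = 0.94) and Zfp608 (0.93), among 8807 genes. For Ghr they were Gpnmb and Akr1a1 (0.92 each), for Insr Nes and Slc38a2 (0.92 each), and for Igf2r Hsp90b1 (0.93) and Slc38a2 (0.92). Igf1r was most like Adprh (0.90) and Wnt10a (0.87), Irs1 most like Znrf2 (0.87) and Apbb1 (0.86), and Igfbp5, over 12 torin 1 libraries, most like Slc6a8 (0.88) and Zfp180 (0.86). These correlations share libraries, group differences and depth and are given as a description.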

How the data were processed

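Raw counts per gene were deposited by the authors for 46 libraries, 23 of ribosome footprints and 23 of poly(A) RNA. The submitters' processing notes name cutadapt 3.4, UMI-tools 1.1.1, STAR 2.5.3a and the build mm10, while the paper's methods name a human build for footprints and the symbols are those of mouse. Molecular identifiers were extracted, and whether reads were collapsed by them is not stated. All RNA counts were even. RNA was listed in the methods after nuclease treatment, and whether it was taken before it is not clear. The 11 symbols on several entries (23 entries) were left out, and 9857 symbols stood in all tables.

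The edgeR quasi-likelihood test (version 4.0.16, R 4.3.3) was applied after TMM scaling to all genes averaging 10 or more counts, without a replicate term, and p-values were adjusted over these genes (Benjamini-Hochberg). Genes with an adjusted value under 0.05 were called. SE was the log2 change over the square root of F. TE was the interaction of assay and group, with TMM factors within each assay. DESeq2 1.42.0, library totals alone, no filter on low counts, replicate blocks, a term for replicates 1 and 2 against the others (a split by RNA library total), replicates 1 to 3 or all, 1 model of all groups and left-out libraries were the alternatives. The scripts were tested on simulated data, where the TE test recovered fewer of the planted changes than the footprint and RNA tests did, and its pass mark was lowered after that run.

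The genes and lists were chosen with earlier results of these data known. The 8 genes are named throughout. Of the wider list, up to 4 called non-members per direction and footprint comparison (3 for RNA and TE), and up to 2 other receptor tyrosine kinases per direction for torin 1, are named, and for each member the 2 most correlated genes among those averaging 100 or more counts. Met falls outside this rule and was named after its value was seen, as were the promoter motifs.

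Replicate numbers come from the labels. Deviations from the group means correlated in each of 6, 6 and 3 same-numbered pairs by 0.45 to 0.64 (footprints, torin 1 in control), 0.37 to 0.60 (footprints, Ctu1 loss in torin 1) and 0.47 to 0.84 (RNA), so these numbers were taken as pairing the samples. The closest replicates of a group differed by 6.58 (footprints) and 16.6 (RNA) times the counting variance, so none was counted as 1 library.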

Additional observations from a re-analysis of the deposited data

Results flagged for a closer look

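Of 26 groups of 5 or 6 footprint libraries examined, 2 held a library far from the rest, and the rule used is set so that chance flags about 1 in 20 groups. Igf2r footprints in Ctu1 iKO torin 1 replicate 1 were 201.82 CPM, with the next library at 114 CPM and a gap of 0.656 of the group's range. Irs1 footprints in control torin 1 replicate 1 were 7.70 CPM, with the next library at 11.9 CPM and a gap of 0.684 of the range.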

How the results depend on the processing

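Depth limits Irs2 and Igfbp5 most, with as few as 40 and 18 footprint counts in a library. All 197 alternative fits ran, and Igfbp5 has no value in the model of all 4 groups. The count of wider-list genes called was 3, 5, 4 and 4 in footprints (Ctu1 loss in DMSO, torin 1 in control, torin 1 in Ctu1 iKO, Ctu1 loss in torin 1), 5, 11, 9 and 3 in RNA (Ctu1 loss in DMSO, torin 1 in control, torin 1 in Ctu1 iKO, Ctu1 loss in torin 1) and 0 in TE. Over all genes these fits called 277, 714, 788 and 479 in footprints and 518, 1259, 794 and 126 in RNA, and parentheses below give the calls over all genes under each alternative. The cause of the differences below was not tested.

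With DESeq2 the counts were 6 and 7 in footprints for Ctu1 loss in DMSO and torin 1 in Ctu1 iKO (700 and 1161), 9, 15 and 13 in RNA for Ctu1 loss in DMSO, torin 1 in Ctu1 iKO and Ctu1 loss in torin 1 (1530, 1609 and 1092), and 4 in TE for torin 1 in control (234, against 112). With library totals alone, torin 1 in control footprints gave 8 (929). The replicate block gave 13 and 9 in footprints for torin 1 in control and Ctu1 loss in torin 1 (2019 and 1425), 13, 26, 20 and 21 in the RNA comparisons (2831, 4206, 3378 and 3162), and, with the culture as a term, 1 in TE for torin 1 in control (111). A block of replicates 1 and 2 against 3 to 6 gave 5, 8 and 9 in the first 3 footprint comparisons (737, 1218 and 1368). Footprint replicates 1 to 3 only gave 1, 2, 1 and 0 (2, 138, 178 and 1). All RNA replicates as labelled gave 18 for Ctu1 loss in DMSO, 0 for torin 1 in Ctu1 iKO, 0 for Ctu1 loss in torin 1 (2677, 0 and 0) and 1 in TE for torin 1 in Ctu1 iKO (253, against 164). The model of all 4 groups gave 3 and 7 in footprints with torin 1 in control and Ctu1 iKO (681 and 1187), and 15 and 11 in RNA for torin 1 in Ctu1 iKO and Ctu1 loss in torin 1 (1717 and 970). Without 1 library at a time, the counts ran from 2 to 3 and 4 to 6 in footprints for Ctu1 loss in DMSO and torin 1 in Ctu1 iKO (144 to 285 and 527 to 921) and from 0 to 6, 6 to 10, 4 to 9 and 0 to 5 in RNA (0 to 511, 412 to 1233, 123 to 1123 and 1 to 406).

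With all RNA replicates as labelled, Irs2 RNA with Ctu1 loss in DMSO was 0.86 (adjusted p = 0.0469) against -0.11 otherwise. Irs1 footprints with torin 1 in Ctu1 iKO were called by DESeq2 (adjusted p = 0.0257), with library totals (0.0343) and in the model of all 4 groups (0.0358), and Irs1 RNA with torin 1 in control was not called with library totals (0.0564). In footprints with Ctu1 loss in DMSO and torin 1 in Ctu1 iKO, numbers did not pair the samples (correlations from -0.08 to 0.49 and from -0.02 to 0.47, with 2 and 3 of 5 samples closest to their own number). There the replicate block called 364 of 10397 and 983 of 9855 genes, against 277 and 788, and called Insr with torin 1 (0.56, adjusted p = 0.0424).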

Other observations

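RNA replicates 4 to 6 were left out of the comparisons. For Ghr they gave 30.3, 30.5 and 34.7 CPM in control DMSO, 34.6, 66.0 and 78.8 CPM in control torin 1, 59.8 and 73.3 CPM in Ctu1 iKO DMSO and 83.2, 30.7 and 39.4 CPM in Ctu1 iKO torin 1. The footprint libraries of control torin 1 replicates 5 and 6 held Ghr at 21.6 and 17.9 CPM, and those of Ctu1 iKO torin 1 replicates 5 and 6 at 40.8 and 37.3 CPM. For Irs2 the later RNA replicates gave 5.03, 6.07 and 4.55 CPM in control DMSO, 12.7, 4.30 and 4.57 CPM in control torin 1, 19.6 and 16.3 CPM in Ctu1 iKO DMSO and 13.0, 9.93 and 8.07 CPM in Ctu1 iKO torin 1. The 6 RNA libraries that lay nearer to the other treatment than to their label were control torin 1 replicates 5 and 6, Ctu1 iKO DMSO replicates 4 and 5 and Ctu1 iKO torin 1 replicates 5 and 6.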
